A study of Mus musculus with 63 samples.

Results

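The 12 libraries analysed here, of 63 in the series, ask how the day 10 response of mouse small intestinal organoids to deletion of *Cdk8* changes when the cultures receive Wnt3-conditioned medium (Wnt3-CM). They were chosen by medium and day alone, without use of any measured value, and form 4 groups of 3 libraries: EtOH and 4-OHT in the standard medium, and EtOH and 4-OHT in Wnt3-CM. All 12 came from organoids of C57BL/6 strain in which *Cdk19* was knocked out (*Cdk19* ko/ko), *Cdk8* was floxed (*Cdk8* fl/fl) and the recombinase VillinCreERT2 was present. The EtOH controls therefore lack *Cdk19* as well, and EtOH and 4-OHT organoids differ in the excision of the floxed *Cdk8* alleles and in exposure to 4-OHT itself. Cre is driven by the *Villin* promoter, which is active in intestinal epithelium, and was switched on by 100 nM 4-hydroxytamoxifen (4-OHT) for 24 hours, with EtOH as the vehicle. The standard medium held Noggin, R-spondin and EGF, and Wnt3-CM was given directly after the 4-OHT pulse. The column names of both media carry the same line number, and nothing ties the replicates to separate animals, so p-values measure the spread between these samples, which may be technical. The 2 media were deposited in 2 tables, and a difference between media cannot be told apart from a difference between the experiments behind the tables.

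CDK8 and its paralog CDK19 are the kinases of the Mediator complex, which links transcription factors to RNA polymerase II. In the small intestinal crypt, Wnt signals maintain the LGR5+ stem cells and the dividing progenitors, while ATOH1 directs progenitors to the secretory lineages of Paneth, goblet, enteroendocrine and tuft cells. Paneth cells themselves secrete WNT3, and epithelial organoids without a mesenchyme depend on that supply.

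Totals ran from 19110500 to 20361097 counts per library, and 14337 of 54752 genes passed the filter on low counts. Levels are given as CPM, counts scaled to the TMM-normalized library size. The whole *Cdk8* gene lay between 46.4 and 57.5 CPM in all 12 libraries, and neither *Cdk8* nor *Cdk19* was called in either medium, but the deleted part of either gene is not counted by itself, so these values do not check the genotype. Of the 5 sex-linked genes listed, 4 were tested and 0 were called between any groups compared. The organoids expressed epithelial genes, with 9 of 9 pan-epithelial markers in the tables tested and a summed level of 8215 to 10110 CPM in the standard and 10190 to 13820 CPM in the Wnt3-CM libraries, whereas 1 of 13 mesenchyme, 3 of 12 immune and 0 of 5 endothelial markers passed the filter. The summed mesenchyme markers measured 3.34 to 5.44 CPM in the standard libraries and 4.39 to 8.25 CPM in the Wnt3-CM libraries, with *Col3a1*, *Lum*, *Thy1* and *Twist1* at 0 in every Wnt3-CM library. Mitochondrial genes took 1.45% to 2.42% of counts, with the highest share in the Wnt3-CM 4-OHT group. In each of the 4 groups the library numbered 1 stood further from the other libraries than they stood from each other (chi-square over degrees of freedom of 7.46 to 12.4 for pairs with number 1, against 2.41 to 5.98 for the pair 2 and 3), and no pair agreed within sampling noise.

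Calls come from edgeR's quasi-likelihood test, fitted to the 12 libraries together, and needed both a fold over 1.5 and an adjusted p (Benjamini-Hochberg) below 0.05. Log2 fold changes are given ± SE. Complete separation of the libraries of 2 groups, as given below for single genes, was common: EtOH and 4-OHT libraries did not overlap for 56.1% of genes in the standard medium and 55.7% in Wnt3-CM, and the media did not overlap for 61.1% of genes with EtOH and 39.7% with 4-OHT. Deletion in the standard medium lowered 1116 genes (7.78% of those tested) and raised 1358 (9.47%), and deletion in Wnt3-CM lowered 1057 (7.37%) and raised 1359 (9.48%). The totals were close. In both media 998 genes were called the same way, which is 40.3% of the standard and 41.3% of the Wnt3-CM calls, and 58 were called in opposite directions. Across all 14337 genes the log2 fold changes of the 2 media, which share no library, had a Pearson correlation of 0.543 and a Spearman correlation of 0.466, as a description over genes that are not independent. The difference of the responses, tested as an interaction, was called for 1911 genes (13.3%), of which 891 (6.21%) responded more negatively and 1020 (7.11%) more positively in Wnt3-CM (967 and 918 in a fit to 30 libraries).

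From these 3 calls each gene was given a class. A response is termed lost where it was called in the standard medium, not called in Wnt3-CM, and the interaction was called against it. It is termed gained where the reverse held, kept where both media were called the same way without a called interaction, and reduced, enhanced or reversed where both media and the interaction were called. Lost responses numbered 560 (3.91% of genes tested), with 306 falls (2.13%) and 254 rises (1.77%). Not called includes changes under the fold cutoff: by the adjusted p alone, 20 of the lost falls and 40 of the lost rises still changed the same way in Wnt3-CM, and 70 and 49 changed the opposite way. Kept responses numbered 832 (5.80%), with 343 falls (2.39%) and 489 rises (3.41%), and gained responses 606 (4.23%), with 315 falls (2.20%) and 291 rises (2.03%). The remaining called classes were small, with 31 reduced (0.216%), 135 enhanced (0.942%) and 58 reversed (0.405%) responses. For 1612 genes (11.2%) that were called in 1 medium only, the interaction was not called, so these calls do not show a difference between media, and for 521 (3.63%) the interaction alone was called. Because the same libraries enter the responses and their difference, the classes describe the genes and are not separate tests.

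**Figure D1:**
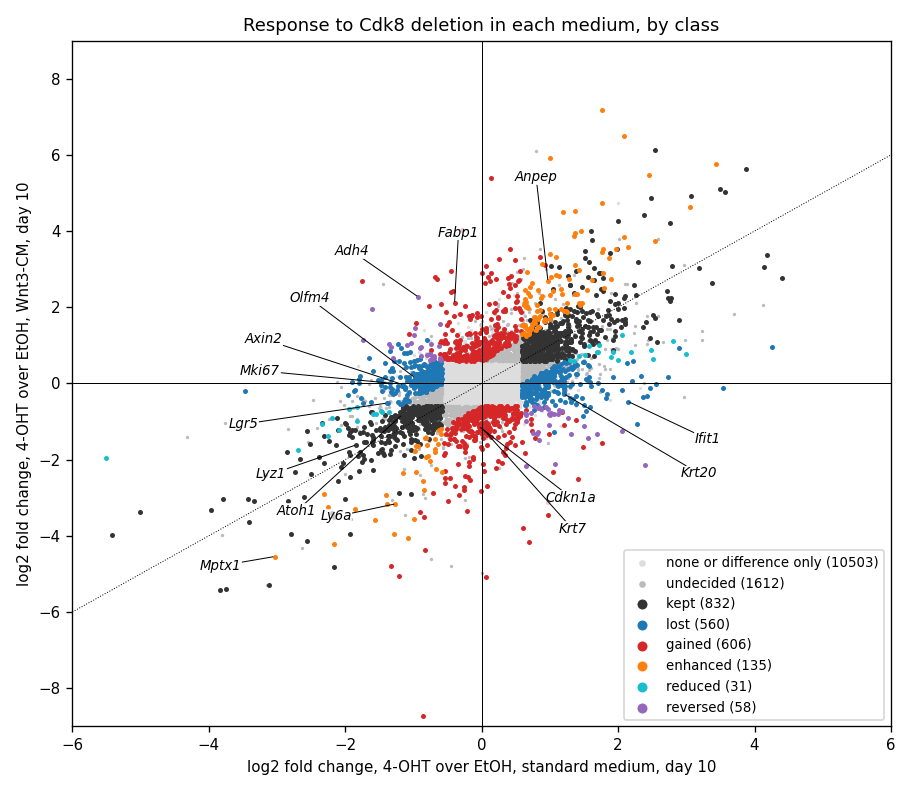
Log2 fold change of 4-OHT over EtOH in the standard medium (x axis) and in Wnt3-CM (y axis) at day 10 for the 14337 genes tested, coloured by class with the number of genes in the key; the dotted line marks equal responses. Lyz1 and Atoh1 lie near the line, Olfm4, Axin2 and Mki67 lie near 0 on the y axis only, and Cdkn1a and Krt7 near 0 on the x axis only.

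The Paneth cell response was kept. Of the 23 Paneth genes tested, of 24 listed, 20 fell in the standard medium and 21 fell in Wnt3-CM, none rose in either, and the median log2 fold changes were -1.52 and -1.53 (0.01 and -0.00 over all genes tested). The classes were 18 kept, 1 enhanced and 2 gained falls. In bulk RNA, fewer cells of a type and less RNA per cell cannot be told apart. *Lyz1*, which encodes the Paneth cell lysozyme, measured 5727, 5891 and 5851 CPM in the standard EtOH and 1499, 1757 and 1616 CPM in the standard 4-OHT libraries, against 3672, 4032 and 3758 CPM and 1248, 1105 and 1389.8 CPM in Wnt3-CM. Every 4-OHT library lay below every EtOH library of its medium, with log2 fold changes of -1.84 ± 0.08 and -1.61 ± 0.08, and the difference of 0.23 ± 0.11 was not called (adjusted p = 0.149). *Mmp7*, the protease that activates the defensins, had log2 fold changes of -1.17 ± 0.09 and -1.16 ± 0.09, with a difference of 0.02 ± 0.13.

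Some Paneth genes kept their fall while their level moved with the medium. *Ang4*, an antimicrobial ribonuclease, measured 284, 291 and 298 CPM in standard EtOH and 1082, 1230.4 and 1237 CPM in Wnt3-CM EtOH, and fell to 62.6, 78.2 and 63.1 CPM and 204, 179 and 214 CPM with 4-OHT. The falls of -2.10 ± 0.09 and -2.57 ± 0.09 differed by -0.47 ± 0.12, under the fold cutoff (adjusted p = 0.00546). *Mptx1*, a pentraxin of Paneth cells, was also higher in Wnt3-CM EtOH, at 139, 177 and 158 CPM, against 19.3, 22.97 and 23.95 CPM in the standard medium, and its fall was enhanced, from -3.04 ± 0.18 to -4.54 ± 0.14. Its 4-OHT libraries, at 2.13, 2.98 and 2.93 CPM and 4.99, 7.41 and 7.89 CPM, were higher in Wnt3-CM as well. *Pnliprp2*, a pancreatic-type lipase expressed by Paneth cells, and *Nupr1*, a stress-response factor, fell in Wnt3-CM alone (-1.41 ± 0.07 and -1.69 ± 0.14, against 0.44 ± 0.07 and -0.24 ± 0.15). *Itln1*, the lectin intelectin 1, fell in both media (-2.38 ± 0.08 and -1.92 ± 0.08). The alpha-defensin genes are near-identical copies, so reads may be split between them. Of those listed, *Defa24* fell from 755 to 263 CPM in the standard medium and from 876 to 247 CPM in Wnt3-CM, and *Defa29* and *Defa5* were not called in Wnt3-CM.

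The epithelium's own *Wnt3* transcript was among the Paneth genes that stayed low in Wnt3-CM. *Wnt3* measured 13.3, 13.4 and 13.2 CPM in standard EtOH and 4.80, 4.60 and 5.14 CPM in standard 4-OHT organoids, and 8.95, 11.5 and 9.20 CPM and 4.79, 5.41 and 4.80 CPM in Wnt3-CM. The 6 libraries with 4-OHT were alike at about 5 CPM in both media, and the fall was -1.46 ± 0.12 in the standard medium and -0.98 ± 0.12 in Wnt3-CM, a difference of 0.48 ± 0.17 (adjusted p = 0.0449) that did not reach the fold cutoff (0.60, and called, without Wnt3-CM EtOH library 2). Among 16 tested Wnt ligand and receptor genes, 3 fell and 1 rose in each medium and no interaction was called (1 was without standard EtOH library 1, standard 4-OHT library 3 or Wnt3-CM EtOH library 2). They were *Fzd9*, a frizzled receptor, with falls of -1.94 ± 0.19 and -1.34 ± 0.20, and *Wnt6*, a Wnt ligand, with rises of 1.24 ± 0.30 and 0.87 ± 0.25, beside *Wnt3* itself; the third fall was *Wnt9b* in the standard medium and *Fzd7* in Wnt3-CM.

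Because several Paneth genes moved together, their promoters are shown for the members that hold the core letters bound by the Wnt effectors of the TCF/LEF family. The motif searched was CTTTGA on either strand (TCAAAG) in 250 bases before and 50 after the annotated start, in RefSeq sequence of build GRCm38.p6. It occurred in 7 of the 15 Paneth genes with a promoter in the table (46.7%), against 18.2% of 27025 genes in all and 14.8% of the tested genes that matched. The 7 include 4 defensins of near-identical sequence, so they are not independent. Of the lost falls with a promoter, 29 of 236 (12.3%) held it, as did 3 of 16 Wnt target genes (18.8%), 2 of 17 stem cell genes (11.8%), 3 of 21 proliferation genes (14.3%) and 5 of 19 interferon-stimulated genes (26.3%). A match describes letters, not a binding site. The 250 bases before the start are printed 5′ to 3′ on the gene's strand, with the matches in capitals, for *Defa22* (chr8:21162027-21162276, plus strand), *Defa30* (chr8:21134400-21134649, plus strand) and *Mptx1* (chr1:174330268-174330517, plus strand).
Defa22: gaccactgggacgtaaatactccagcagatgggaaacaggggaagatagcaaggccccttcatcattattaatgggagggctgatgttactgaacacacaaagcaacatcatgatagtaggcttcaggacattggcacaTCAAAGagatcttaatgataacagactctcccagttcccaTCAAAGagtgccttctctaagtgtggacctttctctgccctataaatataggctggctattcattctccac
Defa30: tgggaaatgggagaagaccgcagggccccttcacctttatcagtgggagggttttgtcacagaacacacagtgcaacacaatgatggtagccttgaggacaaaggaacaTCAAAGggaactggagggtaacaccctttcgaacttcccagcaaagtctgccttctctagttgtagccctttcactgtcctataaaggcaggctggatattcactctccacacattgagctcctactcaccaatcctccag
Mptx1: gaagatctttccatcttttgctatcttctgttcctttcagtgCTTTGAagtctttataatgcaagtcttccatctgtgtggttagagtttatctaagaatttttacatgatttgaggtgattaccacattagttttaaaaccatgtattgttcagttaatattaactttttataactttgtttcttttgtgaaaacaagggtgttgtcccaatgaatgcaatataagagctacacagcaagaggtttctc
In *Defa22* the matches began 111 and 71 bases before the start, in *Defa30* 141 bases before it and in *Mptx1* 208 bases before it. All 3 genes fell in both media, *Defa22* with -0.98 ± 0.15 and -1.13 ± 0.18, and *Defa30* with -1.80 ± 0.17 and -2.31 ± 0.17.

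Goblet cell genes fell in both media in part. Of 19 tested, 10 fell in the standard medium and 9 in Wnt3-CM, 7 were kept falls, 1 fall was lost, and the medians were -0.62 and -0.58. *Fcgbp*, which encodes a mucus protein, measured 2022, 1855 and 2091 CPM in standard EtOH and 960.2, 762 and 784 CPM in standard 4-OHT organoids, then 1171, 1402 and 1277 CPM and 711, 789.8 and 630.0 CPM in Wnt3-CM. Its libraries did not overlap in either medium, and the falls were -1.25 ± 0.10 and -0.85 ± 0.10. *Muc2*, the gel-forming mucin, missed the fold cutoff by little in both media, at -0.58 ± 0.19 and -0.58 ± 0.19, and in the standard medium the lowest EtOH library (193 CPM) lay below the highest 4-OHT library (197 CPM). The chemokine *Ccl9* was the lost member, at -1.62 ± 0.11 in the standard medium and -0.49 ± 0.11 in Wnt3-CM.

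Most transcription factors of secretory fate fell in both media. Of 16 tested, 12 fell in the standard medium and 11 in Wnt3-CM, with 9 kept, medians of -0.86 and -0.83, and none risen. *Atoh1* measured 19.3, 19.3 and 18.1 CPM in standard EtOH and 8.53, 8.57 and 8.11 CPM in standard 4-OHT organoids, and 19.6, 18.5 and 19.4 CPM and 9.73, 11.7 and 10.9 CPM in Wnt3-CM. Its EtOH levels were level across media, and it fell with log2 fold changes of -1.17 ± 0.09 and -0.83 ± 0.09, with a difference of 0.34 ± 0.13 that was not called (adjusted p = 0.0581). *Spdef*, which matures goblet and Paneth cells, fell with log2 fold changes of -0.85 ± 0.10 and -0.89 ± 0.09, and *Neurog3*, which commits enteroendocrine cells, with -1.03 ± 0.24 and -1.46 ± 0.22. *Bhlha15*, which shapes the secretory apparatus, was the reduced member. It measured 23.7, 25.6 and 26.4 CPM in standard EtOH and 10.2, 10.6 and 11.7 CPM in Wnt3-CM EtOH but 5.17, 6.33 and 6.27 and 4.49, 5.36 and 4.12 CPM with 4-OHT, so the fall went from -2.09 ± 0.11 to -1.22 ± 0.12 with the vehicle level lower and the 4-OHT level little moved. Of 5 enteroendocrine genes tested (of 25 listed), 4 fell in both media and were kept, among them *Reg4* at -0.71 ± 0.09 and -0.82 ± 0.09.

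Tuft cell genes fell from low levels in the standard medium and from higher ones in Wnt3-CM. Of 17 tested, 12 fell and 1 rose in the standard medium and 14 fell and 2 rose in Wnt3-CM, and 13 of the 17 were higher in the Wnt3-CM than in the standard vehicle (background 11.8%). The median fitted changes were -2.20 and -3.25, or -1.09 and -2.88 with each member whose lower group never exceeded 3 counts per library set at its bound. The median difference between media, -1.16, rests on genes of low counts: it was -0.61 without standard 4-OHT library 2, and -0.04 over the 3 of the 17 that reached 10 counts in all 12 libraries. *Pou2f3*, the factor that specifies tuft cells, measured 1.65, 2.43 and 2.18 CPM in standard EtOH, 0.586, 0.523 and 0.514 CPM in standard 4-OHT, 3.59, 3.88 and 4.58 CPM in Wnt3-CM EtOH and 0.299, 1.17 and 0.686 CPM in Wnt3-CM 4-OHT organoids. The groups did not overlap within either medium, and the falls of -1.94 ± 0.33 and -2.47 ± 0.29 did not differ by the test (adjusted p = 0.438). *Trpm5*, a channel of chemosensory cells, fell further in Wnt3-CM (-3.25 ± 0.18, against -2.25 ± 0.26), but that call, at an adjusted p of 0.044, was lost with DESeq2 (0.0548), with limma-voom (0.0541) and without any 1 of 8 of the 12 libraries. *Dclk1*, a tuft cell kinase, had 2 counts over the 3 standard EtOH libraries and 0 with 4-OHT, which is at the floor, and 44 and 2 in Wnt3-CM, at least 5.30-fold lower. *Il17rb*, the receptor for the tuft cytokine IL-25, moved in opposite directions (-0.88 ± 0.25 and 0.97 ± 0.26), and *Hpgds*, a prostaglandin synthase, rose in both.

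**Figure D2:**
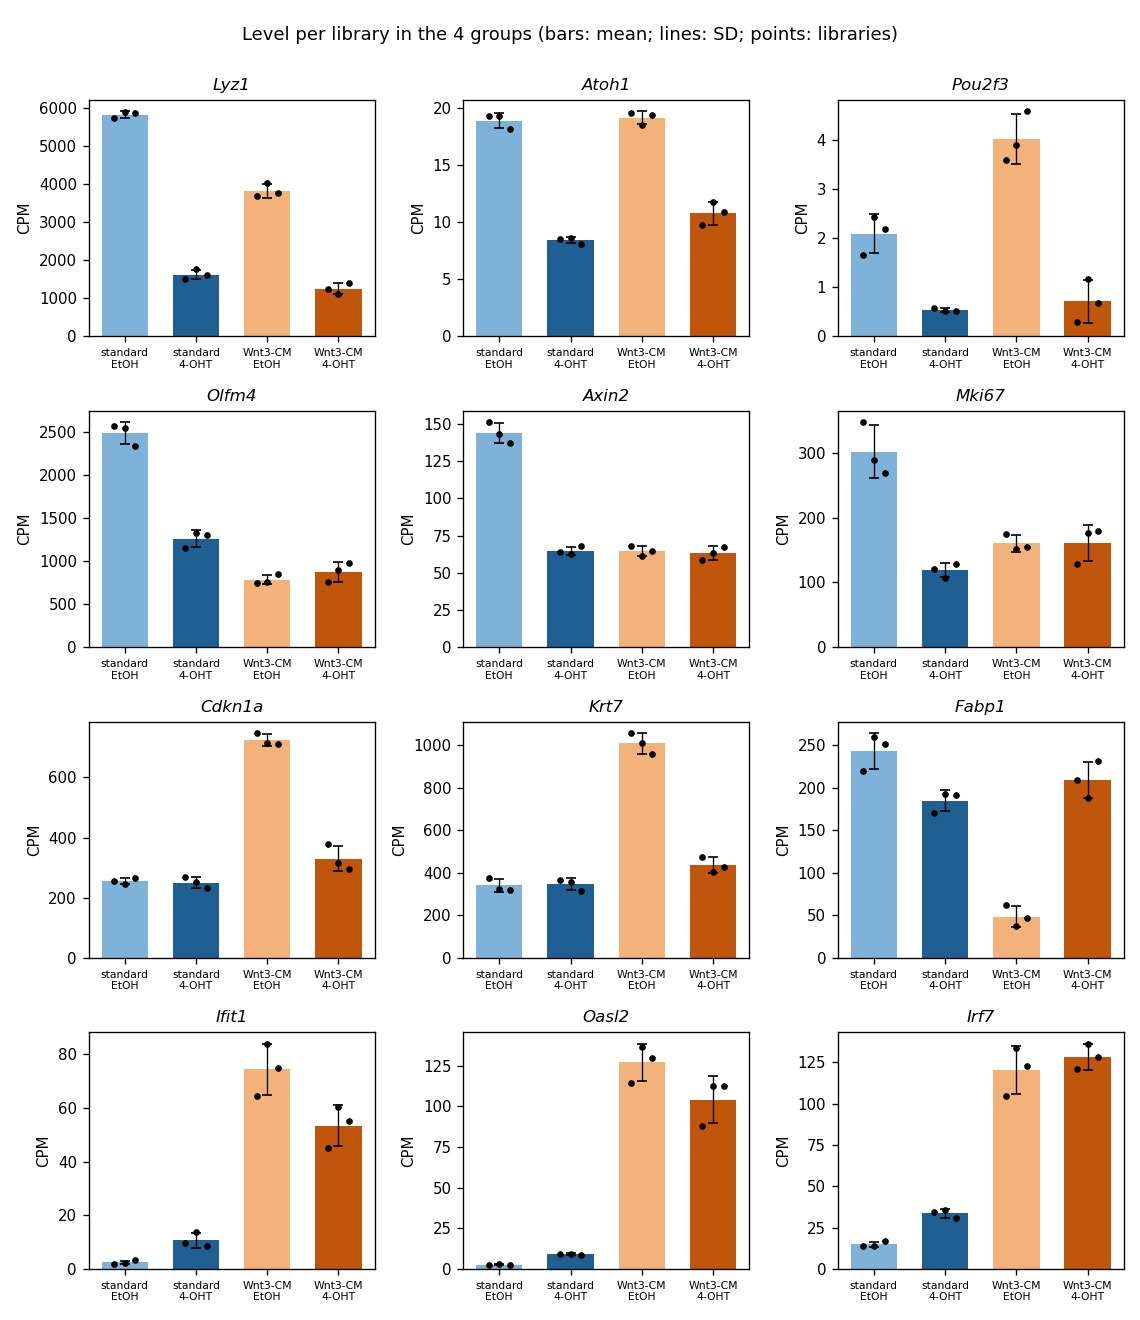
CPM per library of 12 genes in the 4 groups (bars: mean; lines: SD; points: 3 libraries). Lyz1, Atoh1 and Pou2f3 fall with 4-OHT in both media, whereas Olfm4, Axin2 and Mki67 have Wnt3-CM EtOH bars close to the Wnt3-CM 4-OHT bars and far below the standard EtOH bars, and Cdkn1a and Krt7 are highest in the Wnt3-CM EtOH bar.

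The stem cell response was lost for many of its genes. Of 23 stem cell genes tested (of 25 listed), 16 fell in the standard medium and 6 in Wnt3-CM, none rose in either, and the interaction was positive for 10 and negative for 2. The median went from -0.79 to -0.06. The 9 lost falls were *Olfm4*, *Lgr5*, *Axin2*, *Myb*, *Lrig1*, *Rnf43*, *Ephb3*, *Cdca7* and *Aqp4*. *Olfm4*, a secreted marker of crypt base stem cells, measured 2581, 2553 and 2348 CPM in standard EtOH and 1149.9, 1332 and 1304 CPM in standard 4-OHT organoids, then 748, 761 and 852 CPM in EtOH and 755, 900.4 and 976 CPM in 4-OHT organoids in Wnt3-CM. The Wnt3-CM groups overlapped each other, and all 6 of their libraries lay below all 6 standard libraries, so the fall of -0.98 ± 0.09 became 0.16 ± 0.09 with an interaction of 1.14 ± 0.12 (adjusted p = 1.13e-06). The 4-OHT level did not return to that of the standard vehicle in Wnt3-CM. It was instead the Wnt3-CM vehicle that lay lower, with a log2 difference from the standard vehicle of -1.66 ± 0.09, against -0.52 ± 0.09 between the 4-OHT groups.

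*Axin2*, the feedback inhibitor that is a general readout of canonical Wnt signalling, measured 151, 143 and 137 CPM in standard EtOH, and 64.2, 62.3 and 67.9 CPM in standard 4-OHT, 67.96, 61.3 and 64.5 CPM in Wnt3-CM EtOH and 58.3, 63.4 and 67.6 CPM in Wnt3-CM 4-OHT organoids. The standard vehicle thus stood apart, and the other 3 groups overlapped one another. Its response went from -1.15 ± 0.07 to -0.03 ± 0.07 (interaction adjusted p = 8.01e-08). *Lgr5*, the R-spondin receptor of stem cells, kept part of its fall: 161, 183 and 178 CPM became 60.5, 66.1 and 72.5 CPM in the standard medium, and 76.1, 90.1 and 99.6 CPM became 52.1, 71.9 and 61.6 CPM in Wnt3-CM. The 4-OHT libraries were below the EtOH libraries in both media, and the Wnt3-CM change of -0.52 ± 0.11 passed the adjusted p (0.00182) but not the fold, so that it is lost by the fold cutoff only. *Myb*, a progenitor transcription factor, went from -0.92 ± 0.09 to 0.18 ± 0.09, and its Wnt3-CM vehicle at 47.4, 42.4 and 42.6 CPM lay below the standard 4-OHT libraries at 52.02, 59.2 and 62.6 CPM. For *Rnf43*, which removes Wnt receptors, the interaction of 0.61 ± 0.10 sat at the fold cutoff and was not called without standard EtOH library 1 (0.55), standard 4-OHT library 2 (0.57) or Wnt3-CM 4-OHT library 2 (0.58).

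Not every stem cell gene lost its response. *Ascl2*, the Wnt-dependent factor of stem cell identity, was kept: it measured 20.4, 25.1 and 24.00 CPM and 7.41, 8.31 and 10.4 CPM in the standard medium, and 10.1, 12.02 and 14.5 CPM and 5.44, 7.56 and 7.45 CPM in Wnt3-CM. Its groups did not overlap within a medium, the falls were -1.41 ± 0.15 and -0.84 ± 0.16, and the difference of 0.57 ± 0.22 had an adjusted p of 0.0563. Leaving out any 1 of 4 libraries (standard EtOH 1, standard 4-OHT 3, Wnt3-CM EtOH 3 or Wnt3-CM 4-OHT 1) made that difference called, at 0.66 to 0.72, so *Ascl2* lies at the boundary between kept and reduced. *Msi1*, an RNA-binding protein of progenitors (-1.06 ± 0.11 and -0.83 ± 0.11), *Tnfrsf19*, a Wnt-induced receptor, and *Sox9*, a factor of crypt base cells (-0.87 ± 0.09 and -0.91 ± 0.10), were kept too. *Phlda1* and *Bmi1*, listed as markers of injury-activated and reserve stem cells, fell in Wnt3-CM alone (-1.01 ± 0.07 and -1.03 ± 0.09), and the interaction of *Bmi1* fell just under the fold cutoff without standard 4-OHT library 3 (-0.57) or Wnt3-CM 4-OHT library 1 (-0.58).

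Wnt target genes were divided in the same way. Of 19 tested, 16 fell in the standard medium and 6 in Wnt3-CM, with 6 lost and 5 kept, a positive interaction for 6 and a negative one for 0, and medians of -0.83 and -0.29. The lost genes were *Axin2*, *Lgr5*, *Rnf43*, *Ephb3*, *Tcf7* and *Nkd1*, and the kept ones *Ascl2*, *Sox9*, *Tnfrsf19*, *Myc* and *Prox1*. *Myc*, the growth regulator, fell with log2 fold changes of -1.14 ± 0.07 and -0.81 ± 0.07. The stem cell and Wnt target lists share genes and are not independent. Of 14 Notch pathway genes, 8 fell in the standard medium, and 3 of these falls were lost, namely the receptor *Notch1* (-0.81 ± 0.10 to -0.07 ± 0.11), the modifier *Lfng* and the target *Hes5*, while 4 were kept, including the Paneth cell ligand *Dll4* and the receptor *Notch2*. *Hes1*, the Notch target that represses *Atoh1*, rose in both media by the adjusted p, at 0.53 ± 0.06 and 0.92 ± 0.06, and the first of these lay under the fold cutoff.

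Cell cycle genes that fell in the standard medium did not fall in Wnt3-CM. Of 25 proliferation genes, 10 fell and none rose in the standard medium, none fell and 4 rose in Wnt3-CM, and the interaction was positive for 23 and negative for 0. The 10 falls were lost, the 4 rises were gained by other genes, and no gene was called in both media. The median went from -0.57 to 0.29. *Mki67*, the marker of dividing cells, measured 348, 289 and 268 CPM in standard EtOH and 121, 107 and 129 CPM in standard 4-OHT organoids, and 175, 151 and 155 CPM and 129, 176 and 179 CPM in Wnt3-CM. The Wnt3-CM groups overlapped, below the standard vehicle and mostly above the standard 4-OHT libraries, and the change went from -1.34 ± 0.13 to 0.01 ± 0.13 (interaction 1.35 ± 0.18, adjusted p = 0.000117). *Top2a*, the topoisomerase of dividing cells, went from -0.94 ± 0.07 to -0.02 ± 0.07.

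The replication helicase genes *Mcm2*, *Mcm3*, *Mcm4* and *Mcm6* were lost falls likewise, and the mitotic genes *Ccnb1*, *Ccnb2*, *Bub1* and *Birc5* were gained rises. *Ccnb1*, cyclin B1, measured 41.8, 46.8 and 48.4 CPM and 28.4, 33.9 and 34.2 CPM in the standard medium, and 22.8, 22.5 and 22.03 CPM and 32.7, 38.2 and 37.97 CPM in Wnt3-CM. Its change was -0.50 ± 0.08 in the standard medium, under the fold cutoff, and its rise 0.70 ± 0.09 in Wnt3-CM. Between media, 21 of the 25 genes were lower in the Wnt3-CM vehicle (background 11.5%) and 0 were called between the 4-OHT groups (background 4.68% lower and 5.47% higher), with median differences of -0.89 and 0.01. In 4-OHT organoids the cell cycle genes were therefore at about the same level in both media, and the rise in Wnt3-CM was one over a lower vehicle.

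The interaction equals the medium difference between the 4-OHT groups minus that between the EtOH groups, so a lost or gained response can be set beside the medium difference of each arm. The EtOH groups differed between media at 3346 genes (23.3%) and the 4-OHT groups at 1455 (10.1%). For lost falls the median medium difference was -0.76 between EtOH groups and 0.20 between 4-OHT groups, for lost rises 0.98 and -0.00, for gained falls 1.28 and 0.26, and for gained rises -1.03 and 0.07. The larger of the 2 medium differences was that of the EtOH arm for 77.8% of lost falls, 84.6% of lost rises, 94.6% of gained falls and 86.6% of gained rises, beside 67.2% of all genes tested. Kept falls gave 51.9% and kept rises 65.6%, but a kept response has no called interaction, so the class itself holds its 2 medium differences together. Over all genes, the root mean square log2 distance was 0.751 between the EtOH groups, 0.526 between the 4-OHT groups, 0.528 between EtOH and 4-OHT in the standard medium and 0.604 in Wnt3-CM.

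Among the lost responses, 189 falls and 132 rises had a Wnt3-CM vehicle that had moved toward the standard 4-OHT level with no called change between the 4-OHT groups. The opposite case, a 4-OHT level that moved toward the standard vehicle with no called change between vehicles, was met by 30 falls and 27 rises. Of the other lost responses, 17 falls and 53 rises were called between media in both arms and 70 falls and 42 rises in neither, as were 23 gained falls and 37 gained rises in neither. Over all genes tested, 2301 were called between media in the EtOH arm only and 410 in the 4-OHT arm only, so a similar imbalance was present without regard to class. *Slc16a3*, a lactate transporter named here after its values were seen, is one of the 30. It measured 86.2, 84.01 and 93.4 CPM in standard EtOH and 35.3, 45.96 and 33.8 CPM in standard 4-OHT, and 99.2, 96.3 and 92.1 CPM and 126, 106 and 91.5 CPM in Wnt3-CM. There the 4-OHT libraries of Wnt3-CM stood with both vehicles, and the standard 4-OHT libraries stood apart. These medium differences cross the 2 tables, so medium and table cannot be told apart in any of them.

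**Figure D3:**
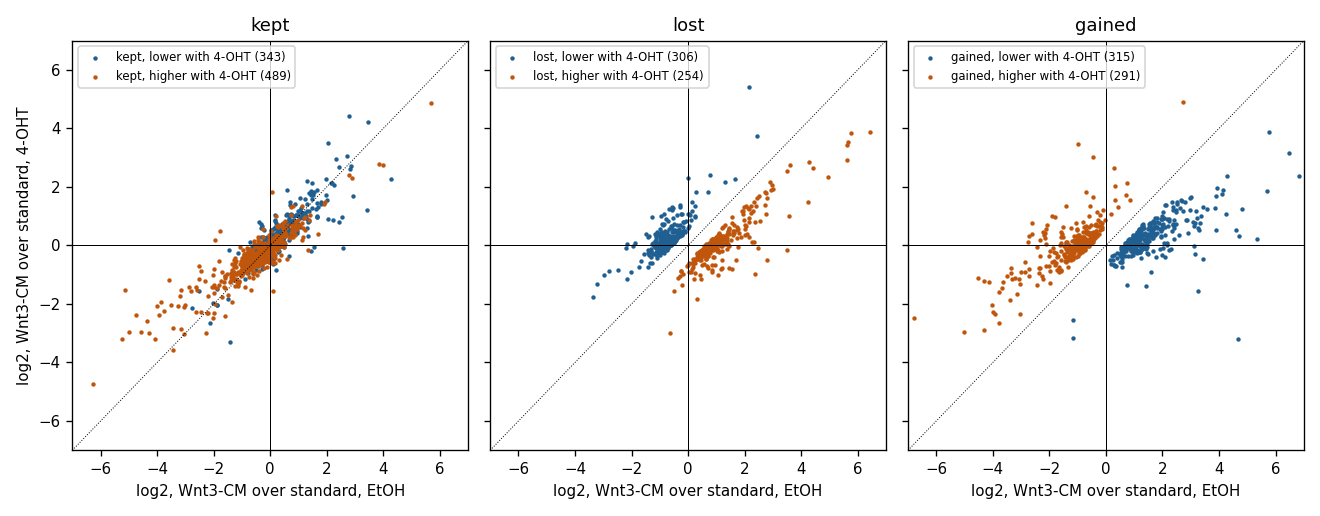
Log2 difference between media (Wnt3-CM over standard) in EtOH organoids (x axis) and in 4-OHT organoids (y axis) for kept, lost and gained responses, one point per gene, with falls in blue and rises in orange. Kept genes follow the dotted line of equal differences and lost and gained genes lie off it, as their classes require. The lost and gained genes spread along the x axis around 0 on the y axis.

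The vehicle levels can be set beside the rest of the standard time course, which was collected at days 3, 5, 7 and 10 in the same table as the standard day 10 libraries. On the scale of the 30 libraries normalized together, *Mki67* averaged between 244 and 296 CPM in the standard vehicle over the 4 days, 158 CPM in the Wnt3-CM vehicle, and between 117 and 159 CPM in standard 4-OHT organoids from day 5 on. *Olfm4* rose in the standard vehicle from 1123 CPM at day 3 to 2449 CPM at day 10 and was at 774 CPM in the Wnt3-CM vehicle. Both genes were therefore lower in the Wnt3-CM vehicle than in any standard vehicle group. *Cdkn1a*, the cell cycle inhibitor p21, behaved otherwise. It averaged 447, 794, 870.3 and 252 CPM in the standard vehicle at the 4 days, so the 712 CPM of the Wnt3-CM vehicle lay within that range although far above its day 10 value. *Krt7*, a keratin, stayed between 289 and 335 CPM in the standard vehicle and reached 992 CPM in the Wnt3-CM vehicle.

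**Figure D4:**
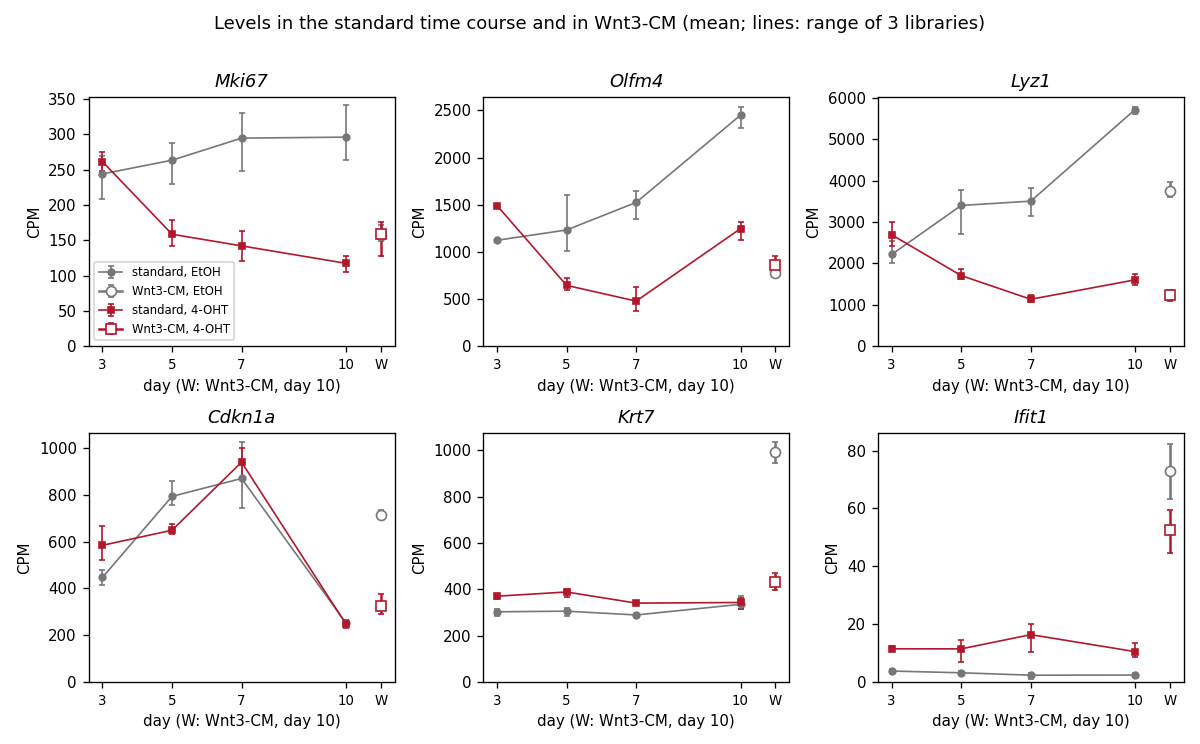
CPM (y axis, from 0) of 6 genes by day in the standard time course (filled symbols) and at day 10 in Wnt3-CM (open symbols at W), mean with the range of 3 libraries. The Wnt3-CM vehicle is below every standard vehicle for Mki67 and Olfm4, above every one for Krt7 and Ifit1, and within their range for Cdkn1a and Lyz1.

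Among the lists, gained falls were most numerous in p53 target genes (9), ahead of immediate early genes (6) and of genes of the regenerative and fetal-like state that intestinal epithelium enters on injury (4). Of 15 p53 targets, 0 fell and 1 rose in the standard medium, 10 fell and 0 rose in Wnt3-CM, and the interaction was negative for 11. The medians were 0.04 and -1.03. *Cdkn1a* measured 257, 247 and 267 CPM in standard EtOH, 268, 253 and 231 CPM in standard 4-OHT, 748, 715 and 711 CPM in Wnt3-CM EtOH and 378, 316 and 297 CPM in Wnt3-CM 4-OHT organoids. The standard groups overlapped, the Wnt3-CM groups did not, and the fall of -1.13 ± 0.08 in Wnt3-CM stood against -0.04 ± 0.08 (interaction adjusted p = 5.55e-07). *Trp53inp1*, *Phlda3* and *Bbc3*, which promote p53-dependent cell death or restrain growth signalling, fell with log2 fold changes of -1.41 ± 0.09, -1.65 ± 0.12 and -1.11 ± 0.11 in Wnt3-CM, against 0.24 ± 0.10, -0.24 ± 0.13 and 0.02 ± 0.11 in the standard medium. *Mdm2*, the p53 inhibitor that is itself a p53 target, was called in neither medium. The Wnt3-CM vehicle exceeded the standard one at 11 of the 15 genes (median 0.94), and 0 were called between the 4-OHT groups (median 0.03).

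Of 16 regenerative and fetal-like genes tested, 5 fell and 4 rose in the standard medium, 12 fell and 0 rose in Wnt3-CM, and the interaction was negative for 11, with medians of 0.13 and -1.14. All 16 were higher in the Wnt3-CM vehicle (median 1.67) and 9 were higher in Wnt3-CM 4-OHT organoids (background 5.47%). *Krt7* measured 377, 325 and 321 CPM in standard EtOH and 369, 356 and 317 CPM in standard 4-OHT, and 1058, 1009.8 and 959 CPM and 476, 404 and 429 CPM in Wnt3-CM. The Wnt3-CM vehicle alone was high, and the response went from 0.03 ± 0.08 to -1.21 ± 0.08. *Il1rn*, the interleukin 1 receptor antagonist, showed the same pattern at 14.4, 18.5 and 19.5 CPM, 16.2, 22.4 and 16.9 CPM, 142, 198 and 178 CPM and 24.8, 25.7 and 28.9 CPM in the same order, with a gained fall of -2.71 ± 0.15. *Ly6a*, the Sca-1 antigen of regenerating crypts, and *Areg*, an EGF receptor ligand, fell in both media and further in Wnt3-CM, from -1.26 ± 0.29 to -3.16 ± 0.24 and from -0.67 ± 0.19 to -2.24 ± 0.17. *Clu*, a marker of revival stem cells, was likewise enhanced (-0.81 ± 0.12 to -1.61 ± 0.12). *Cyr61* and *Ctgf*, which are widely used YAP targets, were called in neither medium. The 13 mesenchyme markers summed to 6.97 to 8.25 CPM in the Wnt3-CM vehicle and 4.26 to 4.77 CPM in the standard vehicle, and to 4.39 to 8.08 CPM and 3.34 to 5.44 CPM with 4-OHT, so that the Wnt3-CM groups overlapped. *Pdgfrb* was the 1 that passed the filter (-0.82 ± 0.16 in Wnt3-CM), with *Col1a2*, *Col3a1*, *Dcn*, *Lum* and *Vim* at 0 in the Wnt3-CM vehicle. The 9 pan-epithelial markers also summed higher in the Wnt3-CM vehicle, at 13250 to 13820 CPM against 8215 to 8677 CPM in the standard vehicle, and at 10190 to 11060 CPM and 9118 to 10110 CPM with 4-OHT. Between vehicles 5 of the 9 were higher and 1 lower (median 0.77), and the interaction was negative for 4 (median -0.58), the same direction as the gained falls. The part of these marker lists in the result was not tested.

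Immediate early and growth factor response genes also held gained falls. Of 21, 7 fell in the standard medium and 15 in Wnt3-CM, with medians of -0.37 and -1.09, and the interaction was negative for 8. *Fos*, a subunit of AP-1, measured 14.4, 17.8 and 20.5 CPM and 16.8, 19.8 and 16.5 CPM in the standard medium, and 104, 117 and 105 CPM and 42.01, 45.05 and 42.5 CPM in Wnt3-CM. Only the Wnt3-CM groups were apart, with a gained fall of -1.33 ± 0.09. *Junb*, another subunit, had a log2 fold change of -1.16 ± 0.10 in Wnt3-CM, against 0.06 ± 0.10. *Egr1*, a serum response factor target, fell in both, with -2.31 ± 0.13 and -2.89 ± 0.12, and the enhanced call was lost without any 1 of 6 of the libraries. *Jun*, *Atf3*, *Dusp1*, *Dusp4* and *Nr4a1*, transcription factors and phosphatases of the same early response, were kept falls.

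**Figure D5:**
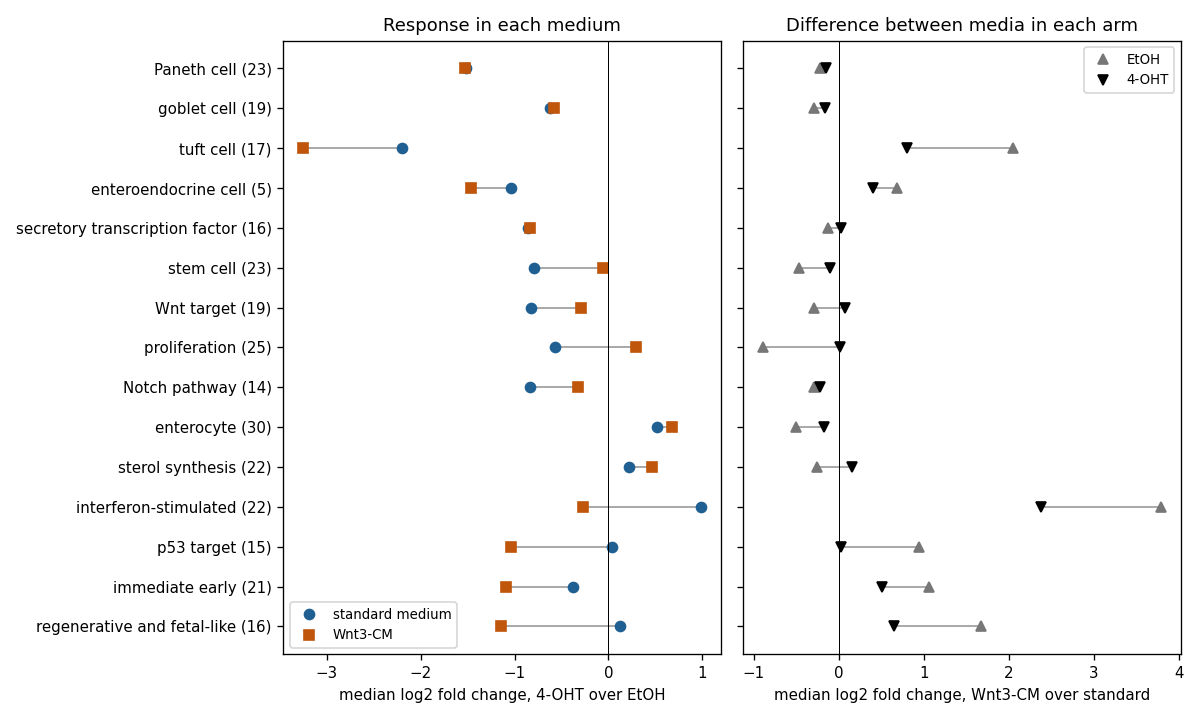
Median log2 fold change of each gene list (number of tested genes in brackets): left, 4-OHT over EtOH in the standard medium (circles) and in Wnt3-CM (squares); right, Wnt3-CM over standard in EtOH (upward triangles) and 4-OHT organoids (downward triangles). Paneth, goblet and secretory transcription factor genes have nearly the same median in both media, and for proliferation and p53 target genes the downward triangle sits at 0 while the upward one does not.

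Enterocyte genes gained and lost rises. Of 30 tested, 12 rose and 2 fell in the standard medium and 16 rose and 3 fell in Wnt3-CM, with an interaction positive for 11 and negative for 4, and medians of 0.52 and 0.68. The 7 gained responses were 6 rises and 1 fall, 5 responses were enhanced rises, 5 were kept and 3 rises were lost. *Fabp1*, the fatty acid binding protein of proximal enterocytes, measured 219.5, 259.5 and 251 CPM in standard EtOH and 171, 192 and 191 CPM in standard 4-OHT, and 61.8, 37.2 and 46.9 CPM and 209, 188 and 231 CPM in Wnt3-CM. It was low in the Wnt3-CM vehicle only, and its response went from -0.40 ± 0.14 to 2.11 ± 0.15 (interaction adjusted p = 4.43e-06). *Anpep*, a brush border aminopeptidase, rose in both, from 295 to 579 CPM and from 76.8 to 494 CPM, and its enhanced rise of 2.68 ± 0.12 over 0.97 ± 0.11 again ended near the same 4-OHT level. *Rbp2*, *Fabp2*, *Treh* and *Apoa4*, which serve retinol, fatty acid, trehalose and lipid handling, were the other enhanced rises.

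The lost rises included *Krt20*, a keratin of the villus tip, and *Mep1b*, a meprin subunit. *Krt20* measured 179, 169 and 169 CPM in standard EtOH, 411, 409 and 375 CPM in standard 4-OHT, 595, 589.5 and 549 CPM in Wnt3-CM EtOH and 492, 446 and 493 CPM in Wnt3-CM 4-OHT organoids. Both Wnt3-CM groups lay above both standard groups, and the rise of 1.21 ± 0.06 turned into -0.28 ± 0.06, past the adjusted p (0.00129) and under the fold cutoff. *Mep1b* went from 0.80 ± 0.07 to -0.41 ± 0.07 in the same way. Enterocyte genes thus did not differ between media as a block: in the vehicle 15 were lower and 6 higher in Wnt3-CM. *Sis* and *Slc5a1*, sucrase-isomaltase and the sodium-glucose transporter, were called in neither medium.

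Sterol synthesis genes gained rises. Of 22 tested, 1 rose in the standard medium and 10 in Wnt3-CM, none fell in either, and the interaction was positive for 6. The medians were 0.22 and 0.46. *Insig1*, a sterol sensor, measured 548, 566 and 573 CPM and 697, 711 and 660.2 CPM in the standard medium, and 283, 253 and 249.7 CPM and 649.9, 668 and 618 CPM in Wnt3-CM. Its Wnt3-CM vehicle was the low group, and the rise was 0.29 ± 0.06 and 1.30 ± 0.06. *Mvd*, *Nsdhl*, *Dhcr7* and *Pmvk* were also gained rises. In the Mediator kinase module, *Med13l* fell in both media (-0.67 ± 0.10 and -0.73 ± 0.10), *Med12* rose in Wnt3-CM alone (0.73 ± 0.11, against -0.33 ± 0.10), and *Ccnc* and *Med13* were called in neither. Of 6 BMP target genes tested 1 fell in each medium, and of 2 MHC class II genes tested 1 fell in Wnt3-CM only.

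Among the lists, lost rises were most numerous in interferon-stimulated genes (8). Of 22 tested (of 24 listed), 13 rose and 0 fell in the standard medium, 2 rose and 6 fell in Wnt3-CM, and the interaction was negative for 16 and positive for 0. The medians were 0.99 and -0.27. The classes were 8 lost rises, 3 reversed, 2 kept rises and 2 gained falls. *Ifit1*, an RNA-binding antiviral effector, measured 1.75, 2.28 and 3.15 CPM in standard EtOH and 9.59, 13.6 and 8.58 CPM in standard 4-OHT organoids, then 64.5, 83.6 and 74.9 CPM and 44.95, 60.3 and 54.9 CPM in Wnt3-CM. The rise of 2.15 ± 0.26 was replaced by -0.48 ± 0.15, under the fold cutoff, and every Wnt3-CM library exceeded every standard library. *Oasl2*, of the oligoadenylate synthetase family, measured 2.33, 2.69 and 2.59 CPM, 9.43, 9.31 and 8.37 CPM, 114, 137 and 130.0 CPM and 87.8, 113 and 112 CPM in the same order, with responses of 1.83 ± 0.15 and -0.29 ± 0.09. *Rtp4* and *Trim30a*, further interferon-induced genes, went from 2.74 ± 0.31 to 0.17 ± 0.11 and from 2.42 ± 0.34 to -0.33 ± 0.18. All 22 genes were higher in the Wnt3-CM than in the standard vehicle (median 3.79), and 21 were higher in 4-OHT organoids (median 2.37), so here, unlike the cell cycle genes, both arms moved. *Isg15*, the ubiquitin-like modifier, and *Ddx60*, a helicase, were reversed, at 0.98 ± 0.24 and -1.08 ± 0.11, and at 1.26 ± 0.31 and -0.91 ± 0.17. *Oas1a* and *Ifi44* were the kept rises. *Ifit3* and *Ifit3b* are near-identical copies and their values are uncertain.

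The 12 immune markers summed to 3.94 to 4.61 CPM in the Wnt3-CM vehicle and 4.28 to 5.17 CPM in the standard vehicle, and to 3.56 to 4.29 CPM and 4.57 to 5.65 CPM with 4-OHT, with *Cd3g* at 0 in all 4 groups. These sums rest on few counts, since 3 of the 12 markers passed the filter, and the part of immune cells in the result was not tested. The promoters of the interferon-stimulated genes are shown because the list moved together. The genes were listed as interferon-stimulated, so a high share of an interferon-response-type motif follows from the list and is no result of these libraries. The interferon-response-type motif searched was GAAA, any 2 bases and GAAA again, or TTTC, any 2 bases and TTTC for the other strand. It occurred within the same promoter window in 12 of 19 listed genes with a promoter (63.2%), against 3.99% of all genes and 3.58% of tested genes, and in 22 of 179 lost rises (12.3%), a group that holds these listed genes too. Repeats of the motif can overlap. *Ifit1* (chr19:34640639-34640888, plus strand), *Ddx60* (chr8:61927837-61928086, plus strand) and *Isg15* (chr4:156200819-156201068, minus strand) are printed with the matches in capitals, again as the 250 bases before the start on the gene's strand in GRCm38.p6.
Ifit1: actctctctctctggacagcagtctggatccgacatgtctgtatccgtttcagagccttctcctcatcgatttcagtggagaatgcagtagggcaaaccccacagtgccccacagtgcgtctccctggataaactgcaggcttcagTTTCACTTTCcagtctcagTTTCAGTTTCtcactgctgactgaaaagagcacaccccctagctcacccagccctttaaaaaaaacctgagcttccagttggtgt
Ddx60: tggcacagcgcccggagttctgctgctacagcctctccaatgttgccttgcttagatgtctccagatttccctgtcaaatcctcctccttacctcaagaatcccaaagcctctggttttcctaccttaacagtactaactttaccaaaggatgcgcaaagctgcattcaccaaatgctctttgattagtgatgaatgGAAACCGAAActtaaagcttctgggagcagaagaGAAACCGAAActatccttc
Isg15: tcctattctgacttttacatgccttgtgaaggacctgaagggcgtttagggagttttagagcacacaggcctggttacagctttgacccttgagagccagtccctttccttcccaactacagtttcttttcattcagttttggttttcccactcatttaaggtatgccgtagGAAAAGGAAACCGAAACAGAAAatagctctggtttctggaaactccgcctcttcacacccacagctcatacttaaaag
In *Ddx60* the matches began 53 and 19 bases before the start.

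Outside the lists, values are given for some of the 5 genes with the largest interactions in each class and direction. *Adh4*, an alcohol dehydrogenase, was reversed: 37.2, 24.2 and 26.6 CPM fell to 17.6, 15.8 and 12.8 CPM in the standard medium, and 0.429, 0.426 and 0.372 CPM rose to 2.94, 1.71 and 1.37 CPM in Wnt3-CM, so that its levels in Wnt3-CM were far below those in the standard medium with either treatment. *Bst1*, a cyclic ADP-ribose synthase, measured 12.4, 21.7 and 21.98 CPM and 7.68, 10.1 and 10.8 CPM in the standard medium and 18.8, 28.3 and 24.5 CPM and 51.1, 75.5 and 70.5 CPM in Wnt3-CM, where the 4-OHT group was the highest of the 4. Its responses were -0.97 ± 0.28 and 1.46 ± 0.24. *Ggt1*, a gamma-glutamyltransferase, went from -0.99 ± 0.13 to 1.26 ± 0.18. The 5 lost falls with the largest interactions were *Gm6831*, *Grin1*, *Enpp7*, *Usp2* and *Ak3l2-ps*. *Enpp7*, the intestinal alkaline sphingomyelinase, went from -1.29 ± 0.17 to 0.60 ± 0.23. *Usp2*, a ubiquitin-specific protease, measured 4.08, 5.83 and 7.31 CPM and 1.12, 2.41 and 1.39 CPM in the standard medium, and 2.89, 5.27 and 3.67 CPM and 3.64, 3.75 and 4.46 CPM in Wnt3-CM. Its change went from -1.80 ± 0.28 to 0.00 ± 0.25, and that of *Grin1*, an NMDA receptor subunit, from -1.09 ± 0.33 to 0.80 ± 0.31. *Gm6831* and *Ak3l2-ps* are annotated as pseudogenes, whose reads may be shared with near-identical copies, and went from -1.90 ± 0.19 to 0.04 ± 0.29 and from -1.21 ± 0.13 to 0.58 ± 0.12. For *Grin1*, *Usp2* and *Ak3l2-ps* the 4-OHT level was called higher in Wnt3-CM and the vehicles were not called.

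Enhanced falls included the enterocyte hormone *Fgf15*, which signals bile acid uptake to the liver, and *Clca4a*. *Fgf15* measured 8.61, 6.03 and 8.02 CPM and 1.49, 2.09 and 1.44 CPM in the standard medium, and 82.00, 106 and 90.8 CPM and 5.04, 4.49 and 5.59 CPM in Wnt3-CM. The Wnt3-CM vehicle was the high group, and the fall went from -2.17 ± 0.19 to -4.21 ± 0.13. *Clca4a* went from -0.99 ± 0.15 to -3.57 ± 0.11. *Spib*, a factor of M and B cells, was enhanced (-1.56 ± 0.39 to -3.59 ± 0.29), a call lost without standard 4-OHT library 2 (adjusted p = 0.0575). Among enhanced rises, *Slc5a11*, an inositol transporter, went from 1.76 ± 0.13 to 4.75 ± 0.27. *Chrna4*, a nicotinic receptor subunit, had 2 counts over the 3 Wnt3-CM EtOH libraries, at the floor, and reached 4.54, 6.34 and 7.45 CPM with 4-OHT, against 0.640, 1.36 and 1.59 CPM with 4-OHT in the standard medium. Reduced responses were *Fbp1*, a gluconeogenic enzyme (-1.95 ± 0.21 to -0.68 ± 0.26), and *Upp1*, a uridine phosphorylase (2.51 ± 0.11 to 0.63 ± 0.09).

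Gained falls outside the lists included *Pik3r5*, a PI3K regulatory subunit, which measured 6.06, 7.50 and 6.92 CPM in the Wnt3-CM vehicle and 0.349, 0.390 and 0.392 CPM with 4-OHT, against 0.827, 0.811 and 0.457 CPM and 1.07, 0.680 and 1.64 CPM in the standard medium. The Wnt3-CM vehicle was again the high group. Of the kept responses with the largest values, *Cyp26b1*, which degrades retinoic acid, fell with log2 fold changes of -2.84 ± 0.33 and -3.10 ± 0.26. *Aldh1l2*, a mitochondrial folate enzyme, fell with log2 fold changes of -3.79 ± 0.32 and -3.04 ± 0.14, though its interaction was called without standard 4-OHT library 1 (1.94). *Apol10a*, an apolipoprotein L, measured 4.67, 4.26 and 4.26 CPM and 30.3, 27.4 and 33.4 CPM in the standard medium, and 8.47, 6.86 and 6.44 CPM and 58.7, 63.7 and 63.6 CPM in Wnt3-CM. Its rises of 2.79 ± 0.11 and 3.09 ± 0.10 did not differ by the test.

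Genes chosen for a response in the standard day 10 libraries would on average respond less in any second set, since the choice favours libraries in which they lay far apart. The choice was therefore repeated with the 6 standard libraries of day 7, which enter neither day 10 response. Deletion at day 7 lowered 1270 (9.03%) and raised 1258 (8.94%) of 14066 genes tested. Of the 1257 day 7 falls tested at day 10, 505 fell in the standard medium and 203 in Wnt3-CM, the medians were -0.50 and -0.05, and the interaction was called against the fall for 401 (31.9%) and with it for 27 (2.15%). Of the 1226 day 7 rises, 648 rose in the standard medium and 416 in Wnt3-CM, with medians of 0.65 and 0.32, and the interaction was called against the rise for 285 (23.2%) and with it for 102 (8.32%). Chosen at day 10 itself, the shares against were 31.0% of falls and 22.3% of rises. Both choices used standard medium libraries of the same time course, and no choice was made from Wnt3-CM libraries. The near-equal shares therefore do not show what choosing by the standard medium adds.

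Read from the other side, most lost responses were present at day 7 in libraries that did not define them. Of the lost falls tested at day 7, 192 of 302 (63.6%) were called falls there, beside 9.03% of all genes, and 162 of 246 lost rises (65.9%) were called rises, beside 8.94%. Kept falls and rises were called at day 7 in 46.1% and 53.5% of cases, and gained falls and rises in 4.53% and 11.6%.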

How the data were processed

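RNA-seq was done on poly-A RNA of organoids with paired-end reads of 100 bases. The deposited values are raw counts per gene, made by the authors before deposit and given in 2 tables, one for the standard time course and one for Wnt3-CM. The submitters' processing notes name STAR 2.5.2, featureCounts, Subread 1.6.3 and the build mm10. Whether counting used strand is not given in the sources used here, so genes that overlap or face each other cannot be separated. The tables were joined by gene identifier, and 12 columns of other samples in them were not used.

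Total counts per library set the depth, and genes were filtered with filterByExpr. Counts of the 12 libraries were normalized by TMM and tested with edgeR 4.0.16 in R 4.3.3 (robust quasi-likelihood fit, 1 coefficient per group), with adjustment by Benjamini-Hochberg over all 14337 genes. Contrasts were 4-OHT minus EtOH in each medium, their difference, and the media within each arm, and the standard errors were derived from the F statistic. The steps were tested on simulated data with 200 changed genes. A response against a group that never exceeded 3 counts per library is given as a bound against that floor, while interactions and list medians are fitted values unless stated. Alternatives were other filters and normalizations, DESeq2 1.42.0, limma 3.58.1 (voom), a fit to 30 libraries, a replicate block, no fold cutoff, and the omission of each library.

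The genes named are those of the gene lists, those the study names for these organoids, and, in each class and direction, from the 5 with the largest interaction (for kept genes, the largest smaller response) among genes that average at least 50 counts in 1 group. Some listed genes are counted in their lists but not reported here by name. The members, classes and lists were chosen with earlier results of these data known. Same-numbered EtOH and 4-OHT libraries of the standard medium deviated from their group means with correlations of 0.309, 0.131 and 0.08. Those of Wnt3-CM gave 0.179, 0.067 and 0.109. Unlike-numbered libraries gave -0.222 to 0.116 in the standard medium and -0.135 to 0.043 in Wnt3-CM, so libraries of the same number tended to deviate together. The main fit did not take the numbers as pairs, and a replicate block was fitted as an alternative. The Wnt3-CM columns name their group and a number that the sample labels do not tie to a sample, so they were used as replicates of the group. Promoter sequences are from RefSeq, build GRCm38.p6.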

Additional observations from a re-analysis of the deposited data

Results flagged for a closer look

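The response to deletion differed between the media by the test of the difference itself (edgeR's interaction contrast) at 1911 genes, which is 13.3% of those tested. Values below are interactions on the log2 scale, Wnt3-CM minus standard, for the genes named above or led by size in their class. Lost falls included *Gm6831* (1.94), *Grin1* (1.89), *Enpp7* (1.89), *Usp2* (1.805), *Ak3l2-ps* (1.79), *Mki67* (1.35), *Olfm4* (1.14), *Ccl9* (1.13), *Axin2* (1.12), *Myb* (1.102), *Ephb3* (0.96), *Top2a* (0.93), *Lgr5* (0.87), *Notch1* (0.73), *Cdca7* (0.71), *Lrig1* (0.68) and *Rnf43* (0.61). Lost rises included *Trim30a* (-2.75), *Ifit1* (-2.63), *Rtp4* (-2.57), *Oasl2* (-2.12), *Krt20* (-1.49) and *Mep1b* (-1.22). Among reduced responses were *Upp1* (-1.87), *Fbp1* (1.27) and *Bhlha15* (0.87). Opposite calls in the 2 media were found for *Adh4* (3.21), *Upk3b* (2.88), *Ankrd44* (-2.81), *Bst1* (2.43), *Ggt1* (2.25), *Ddx60* (-2.17), *Isg15* (-2.06) and *Il17rb* (1.85). Falls that were larger in Wnt3-CM were those of *Clca4a* (-2.58), *Spib* (-2.04), *Fgf15* (-2.03), *Ly6a* (-1.897), *Areg* (-1.57), *Mptx1* (-1.51), *Trpm5* (-0.995), *Clu* (-0.802) and *Egr1* (-0.59). Rises that were larger there were those of *Chrna4* (5.43), *Slc5a11* (2.99), *Anpep* (1.71), *Treh* (1.44) and *Apoa4* (0.96). Falls called in Wnt3-CM alone included *Pik3r5* (-4.84), *2010109I03Rik* (-4.44), *Il1rn* (-2.79), *Ly6d* (-2.17), *Pnliprp2* (-1.84), *Trp53inp1* (-1.64), *Nupr1* (-1.45), *Phlda3* (-1.41), *Fos* (-1.34), *Krt7* (-1.24), *Junb* (-1.22), *Bbc3* (-1.12), *Cdkn1a* (-1.096), *Pdgfrb* (-0.68), *Phlda1* (-0.66) and *Bmi1* (-0.64). Rises called in Wnt3-CM alone included *Aqp3* (5.25), *Fabp1* (2.503), *Ccnb1* (1.200), *Med12* (1.05), *Dhcr7* (1.01), *Insig1* (1.01) and *Apoa1* (0.71). For *Chrna4* and *Aqp3* the Wnt3-CM vehicle was at or under 3 counts per library, so their fitted values depend on the prior count. No test of single outlying libraries was made in these groups of 3.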

How the results depend on the processing

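The numbers of genes called in each medium and for the interaction, and the size of each class over all genes, stayed within 1.5 times their values with no filter, with at least 10 counts in every library, with upper quartile normalization, with TMM within each table, with DESeq2, with limma-voom, with 30 libraries fitted together and without any 1 library. The balance of the interaction turned with 30 libraries, to 967 lower and 918 higher, and at the adjusted p alone, to 2134 lower and 2023 higher, where the Wnt3-CM response also turned, to 3403 lower and 3308 higher. Of the gene lists, the interaction count and the median interaction were recomputed, and the counts of falls, rises and classes were not. The count moved by over 1.5 times for Notch genes (5 to 3 without standard 4-OHT library 1 or Wnt3-CM EtOH library 1), tuft cell genes (3 to 1 without standard 4-OHT library 3 or with at least 10 counts, and to 5 with limma-voom), pan-epithelial markers (4 to 2 without standard 4-OHT library 1 or Wnt3-CM 4-OHT library 3 or with upper quartile normalization) and Wnt ligands and receptors (0 to 1, as given above), and the single calls among MHC class II, immune and mesenchyme genes were lost under several alternatives. At the adjusted p alone the count rose for several lists. With no filter the median moved from 0.12 to 0.48 for Wnt ligands and receptors (24 genes in place of 16) and from -0.68 to 1.69 for mesenchyme markers (10 in place of 1), and the tuft cell median is given above. Without the fold cutoff, at the adjusted p alone, the calls rose to 7103 in the standard medium, 6711 in Wnt3-CM and 4157 for the interaction, and the classes to 1388 lost, 368 reduced, 712 reversed, 2678 kept, 409 enhanced, 1197 gained and 2895 undecided, with 381 of the 560 lost responses among the 1388. The share of lost and gained responses whose larger medium difference lay in the EtOH arm, 86.0%, was 82.1% at the adjusted p alone and 83.47% to 87.95% without single libraries, lowest without Wnt3-CM 4-OHT library 1. Those alternatives for the share were chosen after seeing the data. Leaving out single libraries gave 2322 to 2621 calls in the standard medium, 2193 to 2534 in Wnt3-CM and 1747 to 2003 for the interaction, with 505 to 620 lost, 21 to 36 reduced, 50 to 77 reversed, 768 to 886 kept, 106 to 138 enhanced and 524 to 639 gained responses. With the replicate block in the standard medium, the calls were 2504, 2465 and 1967, with 580 lost, 850 kept and 626 gained responses, and with a replicate block in both media, by the column number in Wnt3-CM and chosen after seeing the data, they were 2549, 2517 and 2062, with 605 lost, 860 kept and 655 gained. Neither block moved one of these counts by over 1.5 times. Among single genes, the interaction calls of Trpm5, Egr1, Rnf43, Spib, Bmi1 and Pdgfrb were lost under at least 1 alternative, those of Ascl2, Wnt3, Aldh1l2, Ctrb1, Dclk1 and Defa30 were gained, and those of Ang4, Fcgbp, Hes1, Hopx, Itln1 and Myc were gained at the adjusted p alone. The cause was not tested.

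With 3 samples of 1 line a group, the p-values cover the spread between samples. Medium cannot be told apart from the experiment behind each table, which touches every comparison between media, the interaction included. A shift common to both arms of a table cancels in the interaction. A difference between the experiments that acts on a single arm does not cancel, and the interaction cannot tell it apart from the medium. A response that was kept is one whose difference was not called, and equal responses are not shown by that. Low genes, such as the tuft cell genes in the standard medium, rest on few counts.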

Other observations

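Genes induced by low oxygen were listed as well, and more of them were called between media with 4-OHT than with EtOH. The 20 genes were listed after values of some had been seen, so the counts are a description. In the standard medium 11 fell and 1 rose (background 7.78% and 9.47%), and in Wnt3-CM 5 fell and 2 rose (background 7.37% and 9.48%). The median log2 fold changes were -0.66 and -0.11. Between media, 10 were higher and 1 lower in the 4-OHT groups (median 0.67, background 5.47% and 4.68%). In the EtOH groups 5 were higher and 2 lower (median 0.18, background 11.8% and 11.5%). Lost falls numbered 6 (background 2.13%). The few lower calls between media were near the background. Ndrg1 was lower in Wnt3-CM in both arms, and Egln1, Higd1a and Pgk1 were among those called between media in neither arm. Slc2a1, a glucose transporter, was higher in Wnt3-CM in both arms, by 1.31 with EtOH and 0.90 with 4-OHT on the log2 scale, and its fall was kept. Ak4, a mitochondrial adenylate kinase, measured 61.4, 67.2 and 80.1 CPM in standard EtOH, 33.1, 35.6 and 37.4 CPM in standard 4-OHT, 48.4, 47.9 and 47.99 CPM in Wnt3-CM EtOH and 72.7, 68.8 and 61.5 CPM in Wnt3-CM 4-OHT organoids. The standard 4-OHT group was the lowest of the 4, and the Wnt3-CM 4-OHT group overlapped the standard vehicle. The Wnt3-CM vehicle of Ak4 was also below the standard vehicle, by a log2 difference of -0.53 that lay under the fold cutoff.

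In a principal component analysis of the 12 libraries the first component held 52.1% of the variance. It placed the Wnt3-CM EtOH libraries at -63.8 to -55.9, the Wnt3-CM 4-OHT libraries at -6.43 to -3.73, the standard EtOH libraries at 19.0 to 24.9 and the standard 4-OHT libraries at 42.7 to 45.1, so that 4-OHT moved both media in the same direction along it, and the Wnt3-CM vehicle lay at one end.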
